A study of Mus musculus with 2 samples.

Results

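Kirrel3, Fam84a, Thbs1 and Nrgn are 4 genes of the 35275 in the deposited read count table. They were chosen by their counts in these 2 libraries: each had at most 10 reads from effector TEa cells and at least 484 from exhausted TEa cells. Their difference between the libraries is therefore a description and was not tested. The choice named no numeric limit. TEa cells are CD4 T cells of C57BL/6 background with a transgenic receptor for a peptide of the I-E alpha chain, a class II molecule that BALB/c mice express and C57BL/6 mice lack. For the exhausted group, cells were moved into CB6F1 hosts. These are the F1 offspring of BALB/c and C57BL/6 parents, and their own tissues carry the antigen. For the effector group the hosts were wild-type C57BL/6, and a BALB/c skin graft brought the antigen. Both groups were sorted from spleen, "exhausted" and "effector" are the submitters' titles, and each group is a single library. Antigen amount, host strain and grafting all change at once between the groups and cannot be told apart. The sources used here do not give the time after transfer, the age of the mice or whether animals were pooled.

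The 4 genes encode proteins of unlike kinds. Kirrel3 encodes a transmembrane cell adhesion molecule of the immunoglobulin superfamily, a relative of nephrin, that binds its own kind on neighbouring cells and takes part in synapse formation in the brain. Fam84a, renamed Lratd1, encodes a protein with an LRAT domain, named after the enzyme that esterifies retinol. Thbs1 encodes thrombospondin 1, a secreted matrix glycoprotein stored in platelets that binds CD47, CD36 and integrins and can release TGF-beta from its latent complex. Nrgn encodes neurogranin, a small protein of neurons that holds calmodulin while calcium is low and lets go of it once calcium rises or protein kinase C phosphorylates it. In T cells, calcium entry after receptor engagement acts through calmodulin on the phosphatase calcineurin, which activates NFAT factors.

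On mm10, the mouse build of the deposited coordinates, Kirrel3 (ENSMUSG00000032036) lies on the plus strand of chromosome 9 from 34485894 to 35036716. Nrgn (ENSMUSG00000053310) lies on the minus strand of the same chromosome from 37544492 to 37552904, 2.51 Mb beyond the end of Kirrel3. Fam84a (ENSMUSG00000020607) is on the minus strand of chromosome 12 from 14147599 to 14152038, and Thbs1 (ENSMUSG00000040152) on the plus strand of chromosome 2 from 118111876 to 118127133. The 4 genes differ widely in structure. In GENCODE M21, an annotation of the same build, the longest exon series had 17 exons for Kirrel3, 2 for Fam84a, 22 for Thbs1 and 4 for Nrgn, against a median of 9 over measured genes. Kirrel3 spanned 550823 bases and Fam84a 4440. Measured genes were the 9999 with at least 50 reads over both libraries, and all 4 genes were among them.

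Promoter windows of 300 bases, 250 before and 50 after the RefSeq start, were found for 2 of the 4 genes and are shown because both genes were nearly silent in 1 library. The Fam84a window (listed under Lratd1) is chr12:14151989-14152288 and the Nrgn window is chr9:37552696-37552995, both on the minus strand of GRCm38.p6, the assembly called mm10, and both printed 5′ to 3′. The RefSeq start of Nrgn lies 159 bases inside the start in the count table. Kirrel3 and Thbs1 are named here without a window. Capitals mark matches to the motifs described below.
Fam84a: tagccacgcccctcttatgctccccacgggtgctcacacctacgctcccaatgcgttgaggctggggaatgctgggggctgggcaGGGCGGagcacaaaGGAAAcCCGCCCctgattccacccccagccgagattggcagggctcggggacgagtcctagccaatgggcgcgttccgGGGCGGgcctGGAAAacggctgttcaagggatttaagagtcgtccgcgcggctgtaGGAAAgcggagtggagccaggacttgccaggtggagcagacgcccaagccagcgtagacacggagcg
Nrgn: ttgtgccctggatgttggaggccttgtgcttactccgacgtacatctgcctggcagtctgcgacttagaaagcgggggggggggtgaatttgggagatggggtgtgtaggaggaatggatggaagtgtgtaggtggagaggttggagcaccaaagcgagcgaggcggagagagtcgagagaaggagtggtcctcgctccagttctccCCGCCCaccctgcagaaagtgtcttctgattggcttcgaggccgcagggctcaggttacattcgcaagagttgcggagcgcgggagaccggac

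A total of 8 motifs were searched on both strands: NFAT (GGAAA), AP-1 (TGANTCA), EGR (GCGTGGGCG), NR4A (AAAGGTCA), the TATA box (TATAAA), Sp1 (GGGCGG), CRE (TGACGTCA) and an E-box (CAGCTG). The Fam84a window held 3 matches to the NFAT letters, starting 151, 63 and 17 bases before the RefSeq start, and 3 to the Sp1 letters. In the Nrgn window there was 1 Sp1 match, on the other strand, and no NFAT match. No motif overlapped another in these windows. Such matches are common: of 32851 mouse windows, 61.3% held the NFAT letters and 35.7% the Sp1 letters. Neither window held the other 6 motifs, which were found in 7.81% (AP-1), 0.612% (EGR), 1.51% (NR4A), 13.6% (TATA), 1.79% (CRE) and 16.3% (E-box) of all windows. GC content was 65% in the Fam84a window and 59.3% in the Nrgn window, against a median of 52.7% over all windows. CpG dinucleotides numbered 23 and 17, against a median of 7.

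Total counts were 8508129 reads in the exhausted library and 7844445 in the effector library. Kirrel3 had 484 reads in the exhausted library and 1 in the effector library. Nearly all of its reads thus came from exhausted cells, and the ratio was 447-fold (exact 95% counting interval 79.9 to 17709). Fam84a had 752 reads in exhausted cells and 2 in effector cells, a ratio of 348-fold (95.9 to 2876). Thbs1 had 651 reads in exhausted cells and 0 in effector cells, where the exact 95% counting interval was 0 to 3.69 reads. With the 0 set to a floor of 3 reads, the ratio of Thbs1 was 200.6-fold. Its lower counting limit was 163-fold, and it has no upper limit. Nrgn had 969 reads in exhausted cells and 10 in effector cells, a ratio of 89.6-fold (48.5 to 187). Ratios are of counts divided by library sizes scaled by the trimmed mean of M-values (TMM), and intervals cover counting error only. Since each group is 1 library, the variation among animals is unknown and no p-value was computed. As the cells were sequenced in bulk, fewer cells with a transcript and less transcript per cell cannot be told apart.

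All 4 genes met the rule for higher in the exhausted library, at least 2-fold with an interval above equality. Of all measured genes, 6.65% met it and 7.07% met the mirrored rule for lower. The 4 genes were picked on this same contrast, so nothing is read from that comparison. The counting intervals of all 4 ratios overlapped, and differences between the ratios were not tested. The ratios of Kirrel3 and Fam84a rest on 1 and 2 effector reads. With 2 reads added to each library as a prior count they were 154-fold and 178-fold, and the floor-based value of Thbs1 became 314-fold. Nrgn was 75.3-fold by that scale. The order of Kirrel3, Fam84a and Thbs1 thus turned with the treatment of low counts, and no rank by ratio is given.

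**Figure D1:**
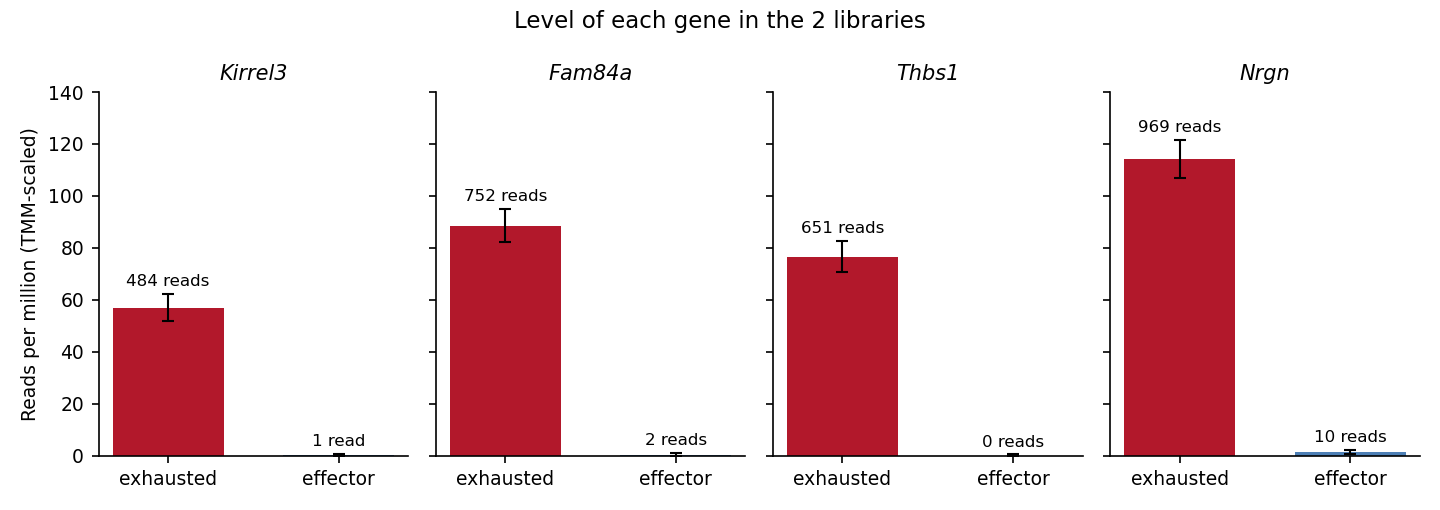
Level in RPM (TMM-scaled, vertical axis) of the 4 genes in the exhausted and the effector library, with exact 95% Poisson intervals as error bars and the read count above each bar. Each gene had 484 to 969 reads in the exhausted library and 0 to 10 in the effector library.

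In exhausted cells these were genes of ordinary abundance. In RPM, reads scaled to the TMM library size, Nrgn reached 114 (exact Poisson 95% interval 107 to 121), Fam84a 88.5 (82.3 to 95.1), Thbs1 76.6 (70.8 to 82.7) and Kirrel3 57.0 (52.0 to 62.3). Together they had 336 RPM in exhausted cells and 1.66 in effector cells. Divided further by gene length in kilobases (RPKM), Kirrel3 and Thbs1 came level. Nrgn, with the shortest transcript, stood at 78.5 RPKM, above 89.9% of measured genes in that library. Fam84a was at 26.2 RPKM, above 67.3%. Kirrel3 at 13.7 and Thbs1 at 13.1 RPKM were close to the median measured gene at 14.5. Per length, Nrgn exceeded Fam84a 3.0-fold (2.72 to 3.30) and Fam84a exceeded Kirrel3 1.91-fold (1.70 to 2.14). Kirrel3 and Thbs1 did not differ beyond counting error, with a ratio of 1.05 (0.930 to 1.18).

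In effector cells only Nrgn had more than a few reads. Its 10 reads (exact Poisson interval 4.80 to 18.4) correspond to 0.876 RPKM, above 2.81% of measured genes. The 2 reads of Fam84a carried an interval of 0.242 to 7.22, which overlaps that of Nrgn. All 3 counts are small beside the 484 to 969 reads in exhausted cells. Kirrel3, with 1 read, had an interval of 0.0253 to 5.57.

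The 4 genes can be placed among all genes of the same shape. With limits of at most 10 effector reads and at least 200 exhausted reads, 21 genes, 0.21% of the measured ones, were nearly absent from effector cells, and all 21 were protein coding. The mirrored limits found 7 genes nearly absent from exhausted cells. By exhausted reads Nrgn was number 1 of the 21, Fam84a number 4, Thbs1 number 6 and Kirrel3 number 9. The ranks use the same counts by which the 4 were chosen, so nothing is read from them. Vdr, which encodes the vitamin D receptor, had 948 exhausted and 8 effector reads, and Cacna1d, which encodes an L-type calcium channel subunit, had 898 and 10. Mapk12, a p38 kinase gene, had 674 and 8, and Edn3, the endothelin 3 gene, 569 and 10. Il4, the gene of the cytokine interleukin 4, had 600 and 2, and Lag3, which encodes an inhibitory receptor of T cells, 361 and 3. Rbpms, an RNA-binding protein gene, had 336 and 7, and Chst3, a sulfotransferase gene, 317 and 1. That all 12 with most reads were high in exhausted cells alone follows from the limits that define the set. The remaining 9 had 218 to 296 exhausted reads. Part of the exon sequence of Cacna1d (4.67%) lies on the other strand from Chdh, which had 2045 reads in exhausted and 75 in effector cells. The sources used here do not give the strand setting of the counting, so the Cacna1d count is uncertain.

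**Figure D2:**
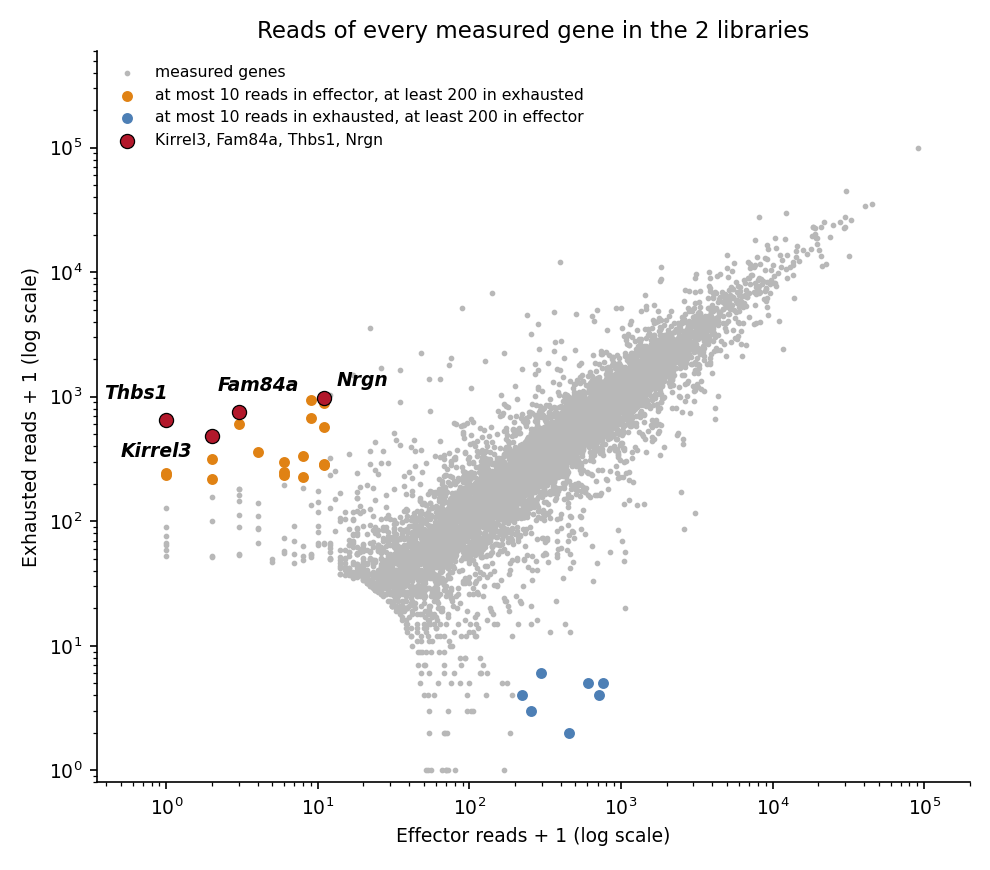
Reads plus 1 in the exhausted library (vertical, log scale) against reads plus 1 in the effector library (horizontal, log scale) for the 9999 measured genes. The 4 red genes lie at the left edge with 484 to 969 exhausted reads, among 21 genes with at most 10 effector reads (the others orange), and 7 genes (blue) show the mirrored shape.

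Nrgn sat at the limit of 10 effector reads, and Gstm1, with 1029 exhausted and 11 effector reads, fell just outside it. The glutathione transferase genes around Gstm1 resemble it closely, which leaves its count uncertain. Only Thbs1, Cthrc1 (243 exhausted reads) and Flrt2 (234) had no effector read at all in this group. With at most 3 effector reads 9 genes were left, among them Kirrel3, Fam84a and Thbs1 but not Nrgn. With at least 500 exhausted reads 8 were left, among them Nrgn, Fam84a and Thbs1 but not Kirrel3.

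Likeness was measured as the distance between genes over the 2 libraries, on log2 of the scaled count plus 1. For Fam84a the nearest gene was Il4 (distance 0.33), with 600 exhausted and 2 effector reads, and the next was Lag3 (1.14). Kirrel3 was nearest to Chst3 (0.61), with 317 and 1 reads, and to Il4 (0.67). Rap1gap, with 218 and 1 reads, was among the 5 nearest of both Kirrel3 and Thbs1. The genes nearest to Nrgn were Cacna1d (0.11), Gstm1 (0.15) and Vdr (0.29). Among these genes the nearest to Thbs1 was Cthrc1 (1.42), which also had 0 effector reads. With 2 libraries such a distance compares a pair of counts and nothing more.

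By GENCODE M21, none of the 4 genes shared exon sequence with another gene that had reads. The annotation behind the deposited counts is not given and may differ. In GENCODE M21 the exons of Kirrel3, Fam84a and Nrgn overlapped no exon of another gene. Thbs1 shared 208 bases, 3.43% of its exon sequence, with Gm29233 on the other strand, which had 0 reads in both libraries. Inside the long span of Kirrel3 lies the antisense gene Kirrel3os, which had 19 reads in exhausted cells and 0 in effector cells. It fell under the read minimum. Among other genes named here, exons of Itgav, Tgfb3, Camk4, Prkca, Ppp3cc, Sdc3, Furin, Klrb1c, Slc37a2, St3gal4 and Tirap also overlap those of another annotated gene, which leaves part of each count uncertain.

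Relatives of the 4 genes were mostly absent from both libraries. Of the other KIRREL and nephrin genes, Kirrel had 0 exhausted reads and 1 effector read, and Kirrel2 and Nphs1 had 0 in both. The thrombospondin genes Thbs2, Thbs3, Thbs4 and Comp had 0 to 7 exhausted and 0 to 13 effector reads. Gap43 and Pcp4, which encode other small calmodulin-binding proteins with an IQ motif, had 0 reads in both libraries, and Pcp4l1 had 1 in each. Of the other 5 LRAT domain genes, Lrat, Hrasls and Hrasls5 had 0 reads in both libraries. The 2 that were measured were Fam84b and Pla2g16. Fam84b, the closest relative of Fam84a, had 58 exhausted and 68 effector reads, and Pla2g16, a phospholipase gene, had 424 and 644. Neither reached 2-fold (Fam84b 1.27-fold lower, 0.880 to 1.83, and Pla2g16 1.64-fold lower, 1.45 to 1.86). The count of Fam84b is uncertain, since 41.7% of its exon sequence faces 9930014A18Rik on the other strand.

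The wider pathways held 54 measured genes besides the 4, in 12 lists. Of these 10 were higher in exhausted cells, 11 lower and 33 neither. Their median log2 ratio was -0.12, and that of all measured genes -0.002. Thus 18.5% were higher and 20.4% lower, beside 6.65% and 7.07% of all measured genes, a difference that was not tested. The same shares of all measured genes stand beside the counts of single lists below, and no list was tested. The largest ratio among them was 10.5-fold.

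Binding partners of thrombospondin 1 were split. The median log2 ratio of the 10 measured was 0.33, and 2 were higher, 3 lower and 5 neither. Itgav, the integrin alpha V chain, had 780 exhausted and 289 effector reads (2.50-fold higher, 2.18 to 2.87), and Itga3, the alpha 3 chain, had 68 and 6 (10.5-fold higher, 4.57 to 29.5). Itgb1, the beta 1 chain that pairs with many alpha chains, had 2415 and 11784 (5.28-fold lower, 5.05 to 5.52). The beta 3 chain gene Itgb3, a partner of alpha V, had 1875 and 1478 and was neither. Cd47, the receptor through which thrombospondin 1 can restrain T cells, had 2367 exhausted and 4295 effector reads, which at 1.96-fold lower (1.87 to 2.06) missed the rule. Scarb1, a scavenger receptor gene, was 2.51-fold lower (1.93 to 3.31), and Sdc3, which encodes a syndecan, was 8.77-fold lower (4.38 to 19.9). Calr, which encodes calreticulin, had 6304 and 4054 reads and was neither. Cd36 had 0 exhausted and 14 effector reads, too few to be measured.

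Genes of latent TGF-beta, which thrombospondin 1 can activate, had 2 of 4 measured members higher and none lower, with a median log2 ratio of 0.94. Tgfb1 had 1599 exhausted and 681 effector reads (2.17-fold higher, 1.98 to 2.38). Tgfb3 had 339 and 67 (4.68-fold higher, 3.59 to 6.17). Nrros, which encodes a protein that tethers latent TGF-beta, had 1956 and 1379, and the protease gene Furin had 567 and 308, neither past the rule. Among other matricellular proteins, Spp1, which encodes osteopontin, had 85 and 15 reads (5.24-fold higher, 3.0 to 9.77) and Fbln1, which encodes a fibulin, had 12 and 51 (4.60-fold lower, 2.42 to 9.47). The Spp1 count is uncertain, since 18.8% of its exon sequence is also annotated to Gm42793. These were the 2 measured of 11, and 8 had 0 reads in both libraries.

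The calmodulin system that neurogranin acts on was expressed in both libraries, and no measured calmodulin gene passed the rule. Calm2 had 3411 exhausted and 3131 effector reads, and Calm3 had 1149 and 730. Per length, Nrgn at 78.5 RPKM in exhausted cells lay above Calm3 at 59.1 and below Calm2 at 333. In effector cells Nrgn was at 0.876 RPKM, against 40.6 for Calm3 and 331 for Calm2. Neurogranin transcript per length thus lay between those of Calm3 and Calm2 in exhausted cells and below both in effector cells.

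Measured genes of kinases and phosphatases that calmodulin switches on were lower or neither, apart from 1 regulator. Of 7 measured calmodulin-dependent kinase genes 3 were lower and none higher, with a median log2 ratio of -0.49. Of all measured genes 7.07% were lower and 6.65% higher, with a median of -0.002, and the difference was not tested. Camk4 had 516 exhausted and 1308 effector reads (2.74-fold lower, 2.47 to 3.04), Camk1d was 2.06-fold lower (1.75 to 2.43) and Camk2b 2.13-fold lower (1.35 to 3.42). Of 7 measured calcineurin genes, Ppp3ca, the alpha catalytic subunit, had 82 and 477 reads (6.29-fold lower, 4.97 to 8.05). The calcineurin regulator gene Rcan1 had 219 and 84 (2.41-fold higher, 1.87 to 3.14), and the other 5 were neither. Among these Ppp3cc had 1217 and 1162 reads, and Cabin1, a calcineurin-binding inhibitor, had 1523 and 1019.

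Protein kinase C genes, whose products phosphorylate neurogranin in neurons, had 1 of 8 measured members higher, 1 lower and 6 neither. Prkca had 4079 exhausted and 665 effector reads (5.67-fold higher, 5.22 to 6.16), and Prkcb had 815 and 2178 (2.89-fold lower, 2.67 to 3.14). Prkcq, which encodes the isoform at the T cell synapse, had 5801 and 4725 reads, and Prkch had 6958 and 4653, both neither.

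Cytoplasmic partners of the nephrin family had 3 of 11 measured genes higher, 2 lower and 6 neither. Their median log2 ratio was -0.19. Cask, a scaffold kinase that binds KIRREL3, had 192 exhausted and 36 effector reads (4.93-fold higher, 3.44 to 7.25). Synpo, which encodes the actin-binding protein synaptopodin, had 2785 and 400 (6.44-fold higher, 5.79 to 7.17). The adaptor gene Nck2 was 2.09-fold lower (1.83 to 2.39) and the polarity gene Pard6a 2.72-fold lower (1.72 to 4.43). Fyn, a kinase of T cell receptor signalling, had 8142 and 6606 reads, and Grb2 had 1683 and 1688.

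Thrombospondin 1 and neurogranin transcripts are also known from platelets, and Kirrel3 and Nrgn from neurons, so markers of other cells were read beside them. Of 18 platelet and megakaryocyte markers, 8 had 0 reads in the exhausted library and 7 in the effector library, among them Gp9, Gp6, Clec1b, Treml1 and Tubb1 in both. Pf4 had 1 exhausted and 3 effector reads, and Ppbp had 0 and 3. Itgb3 was the only one measured, and the other 17 summed to 26 exhausted and 48 effector reads. In the exhausted library Thbs1 had 651 reads and Nrgn 969, and the part of platelets in these counts was not tested.

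Of 9 neuronal and glial markers, Snap25, Rbfox3 and Gfap had 0 reads in both libraries and Syt1 had 0 and 1. Mbp, whose locus is also transcribed in blood cells, had 2375 exhausted and 2090 effector reads and was neither. Map2, which encodes a microtubule-binding protein, was the only marker of this list that was higher, with 86 exhausted and 3 effector reads. Across all 11 lists of other cell types, summed levels ran from 1.41 to 456 RPM in exhausted cells and from 4.96 to 963 in effector cells. The top of both ranges was the B cell list, where Ighm, an immunoglobulin gene, had 453 and 960 RPM. Of the 86 genes in these lists 10 were measured, 3 of them higher, 3 lower and 4 neither. Of all measured genes 6.65% were higher and 7.07% lower, and the difference was not tested. Among the 86, 37 had 0 exhausted and 32 had 0 effector reads. The higher markers, besides Map2, were Itgam (183 and 22 reads) and Klrb1c (229 and 36), in lists where other defining markers had few reads. Most of the Itgam exon sequence (68.7%) is also annotated to Gm49368 on the same strand. Lyz2 had 10 and 37 reads, Csf1r 4 and 18, and Ncr1 0 and 5. The lower markers were Ighm (3851 and 7540 reads), the erythroid marker Hba-a1 (6 and 50) and the CD8 T cell marker Cd8b1 (81 and 164). The part of these cells in the 4 counts was not tested beyond these values. All 11 markers of CD4 T cells were measured, 9 were neither and 2 lower, and Cd4 had 15463 exhausted and 9272 effector reads.

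**Figure D3:**
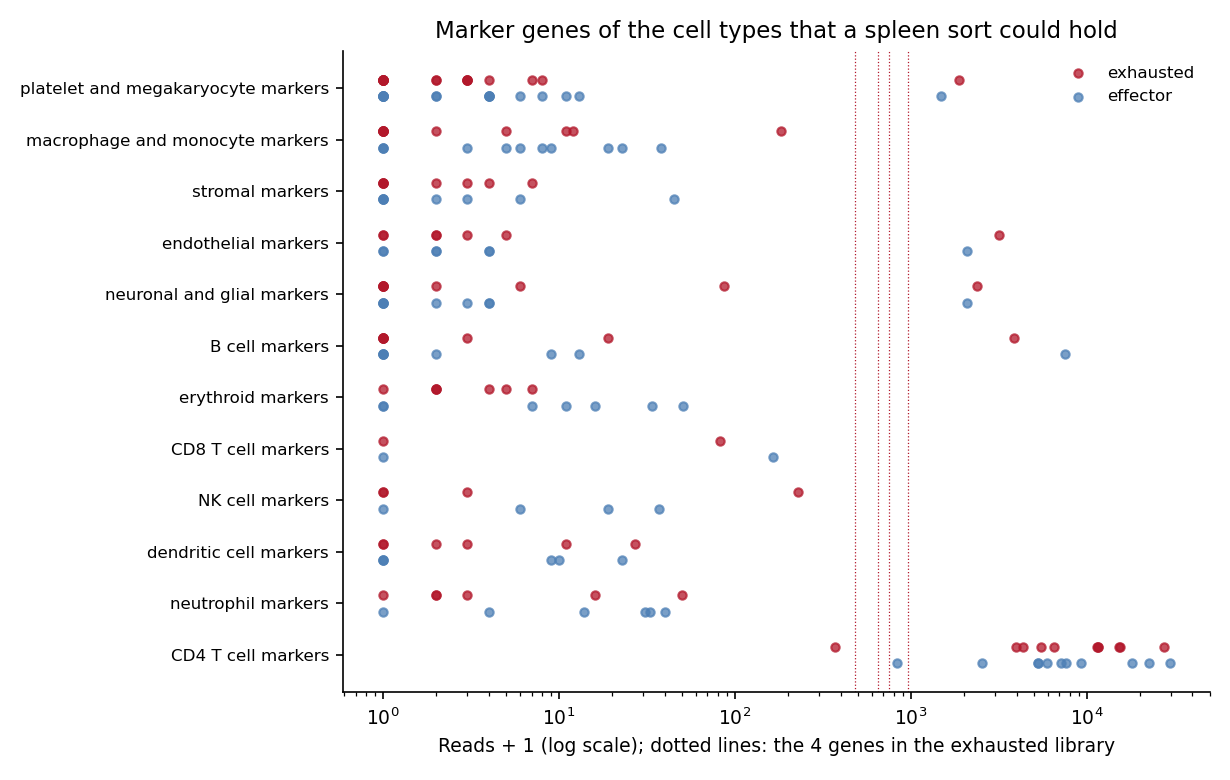
Reads plus 1 (horizontal, log scale) of each marker gene of 12 cell types in the exhausted (red) and effector (blue) library, with dotted lines at the exhausted counts of the 4 genes. CD4 T cell markers lie between 372 and 29944 reads, while most markers of other cells lie under 100.

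Genes lying near the 4 on the chromosome were read in the same way. Since the 4 were chosen for their large ratios, a smaller ratio of a neighbour follows from the choice. Within 1 Mb of either end there were 36 measured genes, of which 9 were higher, none lower and 27 neither. That is 25.0% higher, against 6.65% of all measured genes, a difference that was not tested. Their largest ratio was 4.42-fold, for Slc37a2 near Nrgn (129 exhausted and 27 effector reads). Around Thbs1, 5 of 16 measured genes were higher, the nearest of them on the downstream side being 5430417L22Rik (733 and 166 reads), and the median log2 ratio was 0.40. Its nearest measured neighbours were Eif2ak4, 261 kb downstream (208 and 166 reads), and Rasgrp1, 769 kb upstream (4405 and 7036), both neither.

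Around Kirrel3, 1 of 10 measured genes was higher, Tirap (69 and 16 reads), and the median was -0.01. St3gal4, whose end lies 9.86 kb from that of Kirrel3, had 243 exhausted and 221 effector reads. Near Nrgn, 3 of 8 were higher, among them its nearest measured upstream neighbour Siae, 60.9 kb away (564 and 212 reads). Part of the Siae exon sequence (7.06%) faces Tbrg1 (1098 and 1151 reads) on the other strand, and the Siae count is uncertain for it. Msantd2, 20.3 kb downstream, had 165 and 139 reads. Fam84a lay in a sparse stretch with 2 measured genes within 1 Mb, Nbas (418 and 261 reads) and Ddx1 (881 and 1028), both neither. Its nearest measured upstream neighbour, Trib2, lay outside that window at 1640 kb. Trib2 had 1550 exhausted and 3992 effector reads (2.79-fold lower, 2.63 to 2.96). Between Kirrel3 and Nrgn, 16 genes were measured, 3 of them higher and 13 neither, and their median log2 ratio was 0.07.

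**Figure D4:**
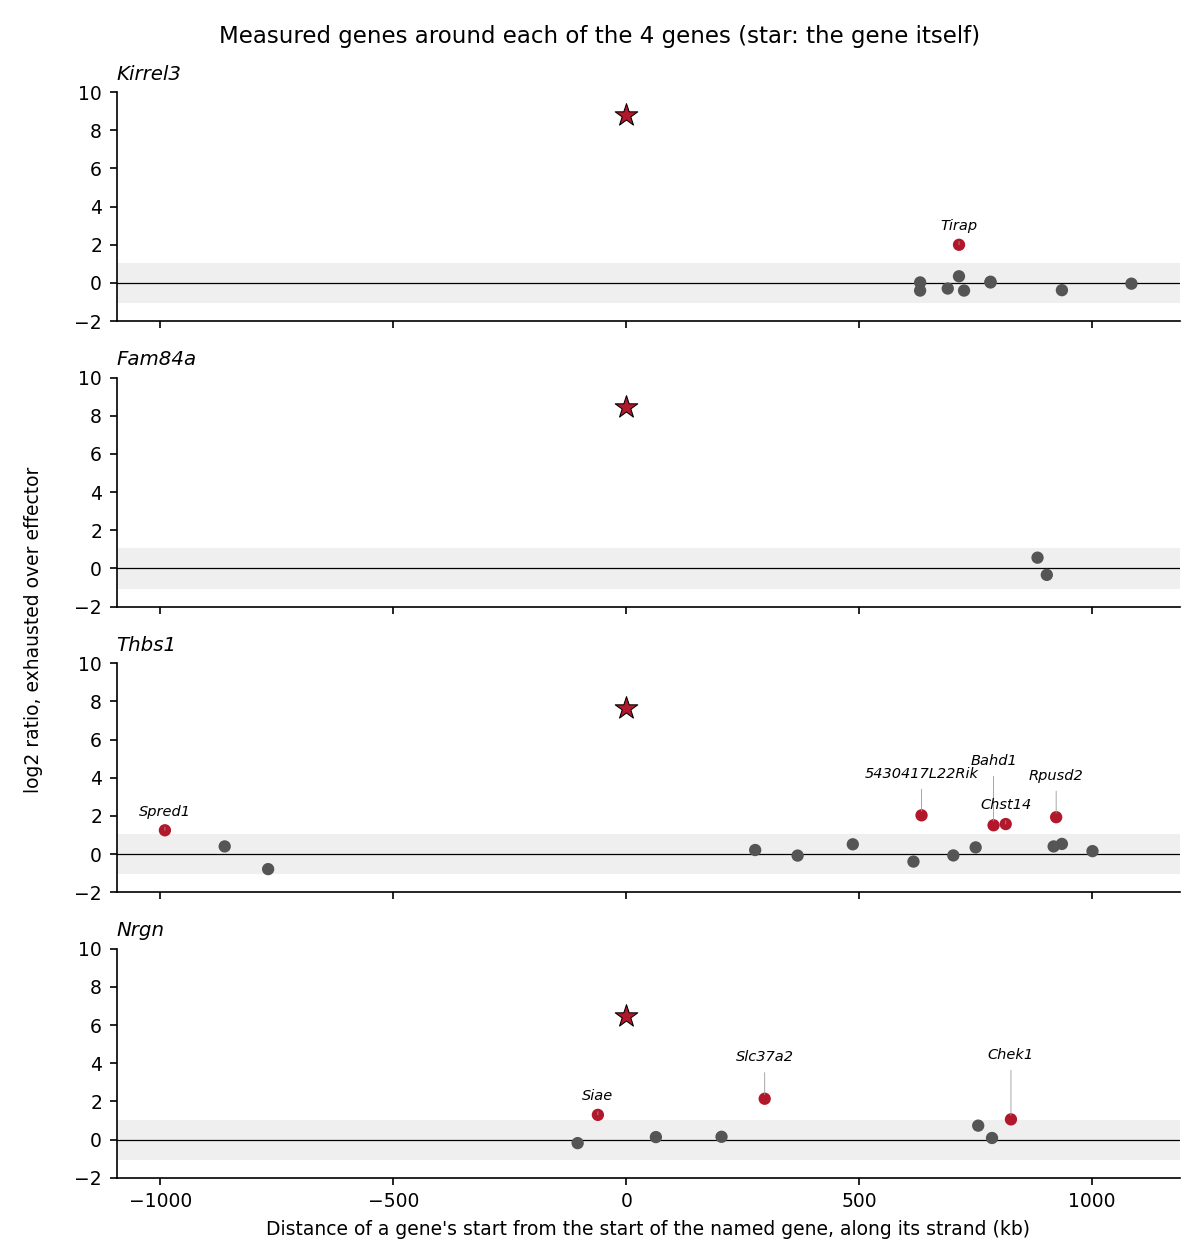
Log2 ratio of exhausted over effector counts (vertical axis) of measured genes within 1 Mb of either end of each gene, against the distance of their start from the start of that gene along its strand in kilobases. Stars mark the 4 genes at 6.49 to 8.81, the grey band marks differences under 2-fold, and red points are the 9 neighbours that were higher, up to 2.14.

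As transcripts the 4 had no common length or composition. The longest annotated transcript was 4147 bases for Kirrel3, 4164 for Fam84a, 5848 for Thbs1 and 1453 for Nrgn, against a median of 3372 over measured genes. GC content was 54.4% for Kirrel3, 49.5% for Fam84a, 49.9% for Thbs1 and 58.6% for Nrgn, against a median of 49.2%. Nrgn was thus both the shortest and the richest in GC of the 4, above 94.1% of measured genes in GC content.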

How the data were processed

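Sorted spleen TEa cells gave 2 libraries, 1 per group. Trizol was used for extraction and a Takara low-input kit for total RNA libraries, per the labels' protocols. PCR copies cannot be told apart in such counts, so intervals may be too narrow. The authors deposited raw read counts for each gene beside gene lengths. Reads were handled with STAR 2.6 on mm10, per the submitters' processing notes. The sources used here do not give the counting program, its strand setting or the annotation.

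Columns were mapped by sample title. Counts were divided by TMM library sizes (edgeR 4.0.16, from genes with at least 50 reads, R 4.3.3). Exact Clopper-Pearson intervals of ratios and Poisson intervals of counts (95%) used scipy 1.17.1. A library at 0 was set to 3 reads. RPKM used the deposited gene length. With 1 library per group no test across animals was possible. The rule was tested on simulated counts with counting error only. These held no variation among animals and no PCR copies, so that step cannot speak to either. Alternatives changed the scaling (DESeq2 1.42.0, totals, upper quartile), read minimum, fold, prior count and depth. Genes named are the 4, their 5 nearest in likeness, list members past the rule or with most reads, chromosomal neighbours, and the 12 highest of the 21. Cthrc1, Flrt2, Map2, Itgam, Klrb1c, Ighm, Hba-a1, Cd8b1, markers at or near 0 and overlapping genes were added after their values were seen. A few list genes are not reported here by name. The members and lists were chosen with earlier results of these data known. GENCODE M21 gave exons and transcripts, RefSeq on GRCm38.p6 the promoter windows.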

Additional observations from a re-analysis of the deposited data

How the results depend on the processing

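The ratios of Kirrel3, Fam84a, Thbs1 and Nrgn stayed above 0 on the log2 scale under all 20 alternatives (scaling by DESeq2 size factors, total counts or upper quartile, a prior count of 2, and thinning of the deeper library) and within their counting intervals. The log2 ratio ranged from 7.27 to 8.82 for Kirrel3, 7.47 to 8.45 for Fam84a, 7.64 to 8.30 for Thbs1 and 6.23 to 6.50 for Nrgn. The lowest values of Kirrel3, Fam84a and Nrgn and the highest of Thbs1 came from the prior count.

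Counts of genes moved with the limits that define them. Genes higher in exhausted numbered 665, and 1040 with a read minimum of 1, 244 with a minimum of 500, 220 at 4-fold and 408 with the interval wholly beyond 2-fold. Genes lower numbered 707, and 1102, 264, 238 and 453 under the same settings. The 21 nearly effector-absent genes became 9 with at most 3 effector reads and 8 with at least 500 exhausted reads. The other alternatives changed these counts by less than 1.5 times. No paired analysis was possible because each group has 1 library. Depth limits the effector side, where counts of 0 to 10 leave each ratio uncertain over a wide range.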

Other observations

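The mirrored limits, at most 10 reads in exhausted cells and at least 200 in effector cells, found 7 genes, which were chosen after their values were seen. Ly6c1, which encodes a surface protein of memory and effector T cells, had 4 reads in exhausted cells and 763 in effector cells. Trat1, which encodes an adaptor that associates with the T cell receptor, had 3 exhausted and 716 effector reads. Cd22, known as an inhibitory receptor of B cells, had 4 and 603. Among B cell markers, Ighm, the immunoglobulin mu chain gene, was lower too, with 3851 and 7540 reads, Cd79b had 2 and 12, Cd79a had 18 and 8, and Ms4a1 had 0 in both libraries. The part of B cells in the Cd22 count was not tested. Cd7, which encodes a T cell surface protein, had 3 and 220. The other 3 were Slc16a5, a transporter gene of the monocarboxylate family, with 1 and 456 reads, Hid1 with 5 and 294, and Capn3, which encodes a calpain protease, with 2 and 255. Thus no gene of this kind had 0 exhausted reads, while Thbs1, Cthrc1 and Flrt2 had 0 effector reads.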
